A study of Mus musculus with 24 samples.

Results

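Between the first day and the sixth week after birth, the microRNAs (miRNAs) transcribed against the imprinted gene Rtl1 fell in mouse lung to a small fraction of their newborn level. They were followed here as the 7 names that the array carries for the 5 hairpins of this cluster: mmu-miR-431, mmu-miR-433, mmu-miR-127, mmu-miR-434-5p, mmu-miR-434-3p, mmu-miR-136 and mmu-miR-136*, written below without the prefix mmu for mouse. They are defined by the locus of their hairpins, with no measured value in the rule, and they are 7 of the 650 miRNA names on the array. The lungs were whole lungs of healthy C57BL/6 mice at day 1, day 4, day 7 and day 14 after birth, 5 arrays per age, and at 6 weeks, written here as day 42, with 4 arrays. No genotype or treatment differed between the groups, and the replicates are called biological in the labels, which do not say whether animals were pooled. Ages are those of the sample labels and the design text, all postnatal, although fetal lungs are named in the title.

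A miRNA is a short RNA cut from a hairpin precursor; it pairs with messenger RNAs, mainly through the seed at bases 2 to 8, and lowers their output. The Dlk1-Dio3 region is imprinted: protein genes such as Dlk1, Rtl1 and Dio3 are read from the paternal chromosome, and long noncoding RNAs and many miRNAs from the maternal one. The hairpins described here lie on the strand opposite to Rtl1, a gene derived from a retrotransposon that is needed in placenta and fetal muscle. Since they are antisense to the Rtl1 message, they match it in full and can direct its cleavage, so that the maternal chromosome holds down a paternal message. Some members are known for other targets as well: miR-127 was studied in fetal rat lung, where raising it disturbed branching, and miR-431 acts on Pax7 in mouse muscle stem cells. In the following, miR-431 stands for the 5p arm, miR-433 and miR-127 for the 3p arms, miR-136 for the 5p arm and miR-136* for the 3p arm of their hairpins, as RefSeq names them today.

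The mature sequences are shown because the members share a locus but no seed, so that each is read by the array and acts through letters of its own. Capitals mark the seed. All 7 names matched RefSeq, which places them on the plus strand of chromosome 12 (build GRCm38.p6):
miR-431, chr12:109590459-109590479: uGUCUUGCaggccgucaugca
miR-433, chr12:109591781-109591802: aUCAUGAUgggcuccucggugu
miR-127, chr12:109592888-109592909: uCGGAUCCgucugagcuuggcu
miR-434-5p, chr12:109594528-109594549: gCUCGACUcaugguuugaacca
miR-434-3p, chr12:109594565-109594586: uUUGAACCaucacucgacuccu
miR-136, chr12:109595331-109595352: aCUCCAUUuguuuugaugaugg
miR-136*, chr12:109595366-109595387: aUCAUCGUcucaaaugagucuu

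The 7 seeds all differed, and 0 other mouse mature entries of RefSeq held any of them. The 5 hairpins lay within 4942 bases, and all 5 were inside the span that RefSeq gives to Rtl1. From miR-431 to miR-136 the gaps between neighbouring hairpins were 1177, 1007, 1590 and 727 bases. The members differed in base composition. Both arms of miR-136 were 36.4% G and C, against 45.5% for miR-434-3p, 54.5% for miR-433, 57.1% for miR-431 and 59.1% for miR-127, with miR-434-5p between its sister arm and miR-433; the median of all mouse mature entries was 52.2%.

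For the hairpins that were measured on both arms, the whole precursors are given with the mature arms in capitals, since the arms are compared with each other further on. The arms of miR-434 share the runs UUUGAACCA and CUCGACUC, of 9 and 8 bases, whereas the longest run shared by the arms of miR-136 had 4. The hairpin of miR-136 also lies inside that of Mir3071 on the opposite strand.
Mir434, chr12:109594506-109594599: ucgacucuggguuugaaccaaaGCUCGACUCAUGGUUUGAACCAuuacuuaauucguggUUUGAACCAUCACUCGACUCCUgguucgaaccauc
Mir136, chr12:109595327-109595388: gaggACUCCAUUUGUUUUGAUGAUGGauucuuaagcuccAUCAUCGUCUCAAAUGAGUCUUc

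Values are scaled signals in intensity units: the background-subtracted signals of a miRNA's probes were summed on each array, and each array was brought to the same 75th percentile over the 228 names that were detected throughout. Tests used log2 of the scaled signal with limma, in 1 model of all 24 arrays, and a miRNA is said to have changed where its p, adjusted over the 322 tested names, was under 0.05. Errors are standard errors (SE) of that model unless SD is named. Values below a floor of 7.24 units count as that floor. The 24 arrays lay on 3 slides with all ages on each. Their brightness, the 75th percentile before scaling, ran from 923 to 4953 units, with a mean of 3104 at day 42 and 1539 at day 1, and 266 to 348 names were detected per array. Between arrays of the same age the correlation was 0.882 to 0.998. Results must be read with 2 features of these arrays in mind. On 5 dim arrays, replicates 4 and 5 of day 1, 1 and 3 of day 4 and 4 of day 42, brightness was under 0.75 of the median of their age. Replicate 5 of day 14 stood apart from the other 4 arrays of its age in the direction of day 7.

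All 7 members changed over the 5 ages (moderated F-test; 65.5% of all 322 names changed). Each was detected on all arrays of the first 3 ages. At day 42, miR-127 and miR-434-3p were detected on 4 of 4 arrays, miR-136 on 3, miR-434-5p on 2, miR-136* on 1, and miR-431 and miR-433 on 0. In 5 members the mean level followed the order of age, highest at day 1 and lowest at day 42, while both arms of miR-136 departed from that order in the first week. As the tissue is a mixture of cells, fewer cells that make a miRNA and less of it per cell cannot be told apart.

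**Figure D1:**
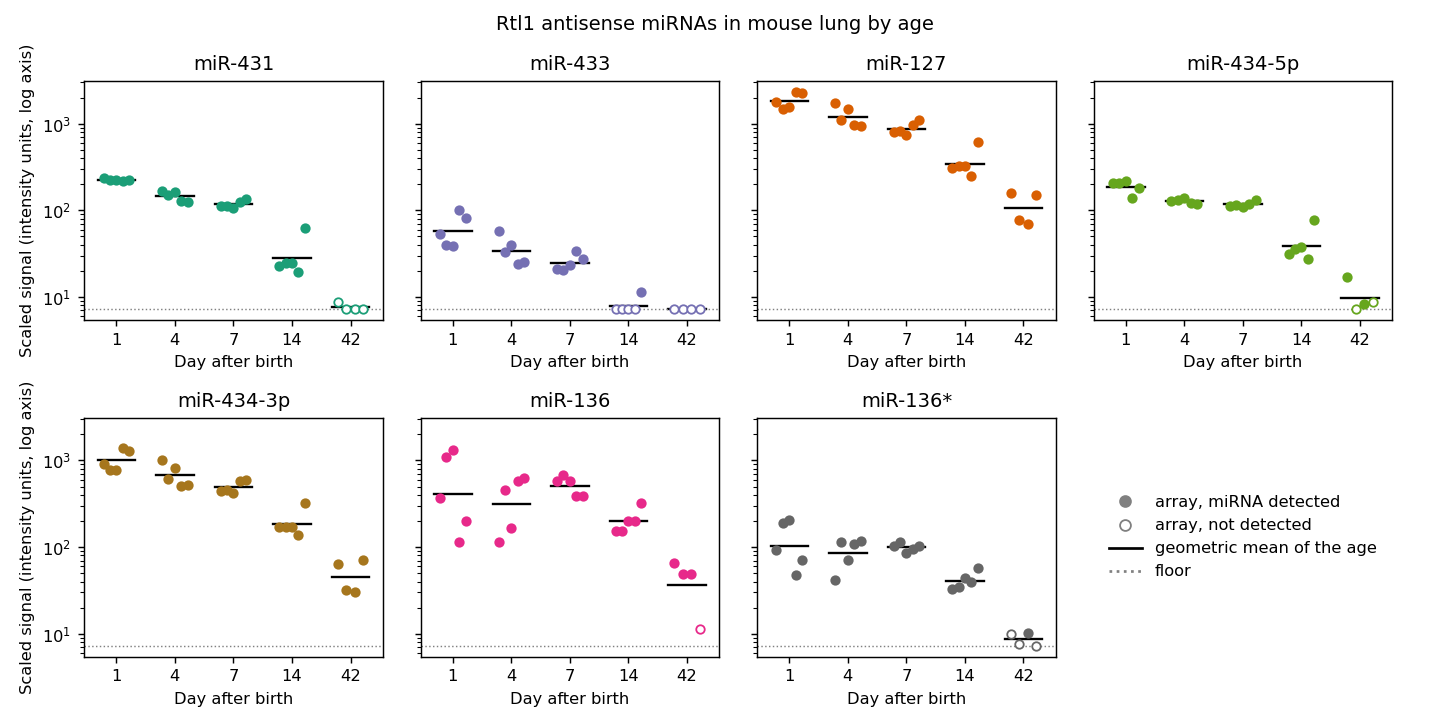
Scaled signal (intensity units, log axis) of each of the 7 miRNAs at days 1, 4, 7, 14 and 42, 1 point per array, filled where detected and open where not, with the geometric mean of each age as a line and the floor of 7.24 units dotted. All arrays of day 42 lie below all arrays of day 1 in every panel, and 1 array of day 14 lies above the other 4.

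The first hairpin of the cluster gave miR-431, with the tightest newborn values. It read 234, 226, 223, 219 and 222 units at day 1, then 165, 151, 163, 128 and 124 at day 4, and 111, 113, 108, 124 and 135 at day 7. At day 14 it read 23.1, 24.7, 25.02, 19.3 and 63.3 units, and at day 42 the 4 arrays read 8.78, 1.17, 3.01 and 3.23, none of them detected. The groups did not overlap except at days 4 and 7, and the highest day 14 array was replicate 5. Against day 1, miR-431 fell, with a log2 change of -0.93 ± 0.21 at day 7 (adjusted p = 0.00513) and of -3.0005 ± 0.21 at day 14 (adjusted p = 1.08e-10). By day 42 it had fallen at least 28.6-fold (adjusted p = 2.08e-14), a bound since no day 42 array detected it. Between neighbouring ages, days 4 and 1 did not differ by this test (-0.63 ± 0.21, adjusted p = 0.159), nor did days 7 and 4 (-0.30 ± 0.21, adjusted p = 0.682). The call for day 4 against day 1 was gained without replicate 5 of day 14 (adjusted p = 0.00168, at the same value).

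The next hairpin gave miR-433, the member nearest to the floor. Its day 1 arrays read 53.3, 39.6, 39.3, 100.5 and 80.9 units, those of day 4 57.6, 33.1, 40.0, 23.9 and 25.6, and those of day 7 21.0, 20.4, 23.4, 33.7 and 27.5. At day 14 only replicate 5 detected it, at 11.5 units, and the other 4 read 2.32 to 4.54. No day 42 array detected it (-0.72 to 3.19 units). At day 14 it was thus detected on 1 of 5 arrays, against 5 of 5 for miR-431, from a lower day 1 mean of 62.7 units against 225. Against day 1 it fell, with -1.24 ± 0.25 at day 7 (adjusted p = 0.0027) and -2.88 ± 0.25 at day 14 (adjusted p = 2.95e-09), and it was down at least 7.80-fold by day 42 (adjusted p = 1.03e-09). Day 42 and day 14 both lay at the floor, so that no order can be read between them (-0.13 ± 0.27, adjusted p = 0.792). Of its 2 probes only 1 carried the signal: the second averaged 5.49 units at day 1, below the floor. At day 4 it stood at -0.77 ± 0.25 against day 1 (adjusted p = 0.159), and it passed the test without replicate 1 of day 4 (-0.96, adjusted p = 0.0351).

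The third hairpin gave miR-127, which was detected on all 24 arrays. It read 1778, 1481, 1579.8, 2331 and 2245 units at day 1, then 1725, 1106, 1493, 965 and 934 at day 4, and 807, 827, 744, 962 and 1100.2 at day 7. At day 14 it read 309.6, 326, 322.8, 248 and 619 units, and at day 42 159, 77.2, 69.6 and 151. The arrays of days 7, 14 and 42 formed 3 groups without overlap, while day 4 overlapped both of its neighbours. Its mean was 114 ± 47.2 units at day 42 (SD, n = 4), against 1883 ± 386 at day 1 (SD, n = 5). It fell 17.4-fold by day 42, a log2 change of -4.12 ± 0.27 (adjusted p = 6.12e-12). Of that log2 change, 26.1% was reached by day 7 and 58.7% by day 14. Both of its probes gave this size, -4.17 and -4.10.

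The fourth hairpin was measured on both arms. The 3p arm read 914, 784, 778, 1404 and 1299 units at day 1, then 1020.1, 616, 809.6, 513 and 519 at day 4, and 441, 462, 426, 581 and 596 at day 7. At day 14 it read 170.0, 172, 169, 137 and 325 units, and at day 42 64.6, 31.9, 30.1 and 70.5. As with miR-127, days 7, 14 and 42 did not overlap with each other. By day 42 miR-434-3p had fallen 21.9-fold against day 1, a log2 change of -4.45 ± 0.29 (adjusted p = 4.32e-12), with 22.8% of the log2 change reached by day 7 and 54.7% by day 14.

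The 5p arm read 205, 205, 219.8, 140.2 and 181 units at day 1, then 127, 132, 138, 123 and 119 at day 4, and 113, 114, 109.6, 119.9 and 132 at day 7. At day 14 it read 31.7, 36.3, 38.2, 27.3 and 77.8 units, and at day 42 17.2 and 8.42 where detected and 6.93 and 8.69 where not. All day 1 arrays lay above all day 4 arrays, and days 4 and 7 overlapped. At day 42 miR-434-5p was lower than at day 1, with -4.27 ± 0.24 (adjusted p = 6.94e-13); with 2 of 4 arrays not detecting it, the size of this fall leans on values close to the floor.

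The last hairpin departed from the others in the first week. On the day 1 arrays miR-136 read 367, 1108, 1313, 115 and 198 units, on those of day 4 113, 459, 165, 576 and 623, and on those of day 7 573, 683, 576, 392 and 391. At day 14 it read 153, 155, 200.1, 203 and 324 units, and at day 42 65.3, 48.3 and 49.4 where detected and 11.3 on the dim replicate 4, where it was not. Its day 1 arrays ran from below all arrays of days 7 and 14 to above them and overlapped almost the whole range of day 4, whereas day 14 lay below all of day 7 and day 42 below all other arrays. Its highest mean was at day 7, followed by days 1, 4, 14 and 42, but in that order only day 42 and day 14 differed by the test (-2.45 ± 0.64, adjusted p = 0.00439). Against day 1, miR-136 was at 0.30 ± 0.60 at day 7 (adjusted p = 0.712) and at -1.06 ± 0.60 at day 14 (adjusted p = 0.135), and it had fallen 11.3-fold by day 42 (-3.50 ± 0.64, adjusted p = 5.40e-05).

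Its other arm was also spread over the first ages, and its highest mean was at day 1. At day 1 miR-136* read 93.1, 187, 206, 47.5 and 71.0 units, at day 4 41.3, 116, 71.7, 109 and 118, and at day 7 104, 115, 85.0, 94.3 and 102. At day 14 it read 33.2, 35.0, 44.4, 39.7 and 56.9 units, and at day 42 10.2 where detected and 9.97, 7.61 and 6.39 where not. The first 3 ages overlapped, and day 14 lay below all day 7 arrays but not below the lowest arrays of days 1 and 4. Against day 1 it was at -0.06 ± 0.33 at day 7 (adjusted p = 0.901), and it fell, with -1.34 ± 0.33 at day 14 (adjusted p = 0.00165) and -3.59 ± 0.35 at day 42 (adjusted p = 4.14e-09).

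The first-week spread of miR-136 followed the brightness of the arrays. At day 1 its highest array was 11.5 times its lowest, against 4.34 times for miR-136*, 1.57 times for miR-127 and 1.07 times for miR-431 on the same 5 arrays. Within ages, log2 of the scaled signal changed by 1.81 per doubling of array brightness for miR-136 (r = 0.80, n = 24 arrays) and by 0.85 for miR-136* (r = 0.70). The other members ran flat or the other way, with -0.81 for miR-434-3p (r = -0.82), -0.70 for miR-127 (r = -0.75), -0.65 for miR-433 (r = -0.71), -0.20 for miR-431 (r = -0.28) and -0.05 for miR-434-5p (r = -0.06). These slopes are descriptions over arrays that share the brightness factor by which the signals were divided, and dim arrays fell unevenly among the ages. The 2 members with rising slopes are those with the lowest share of G and C; whether base composition has a part in it was not tested.

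**Figure D2:**
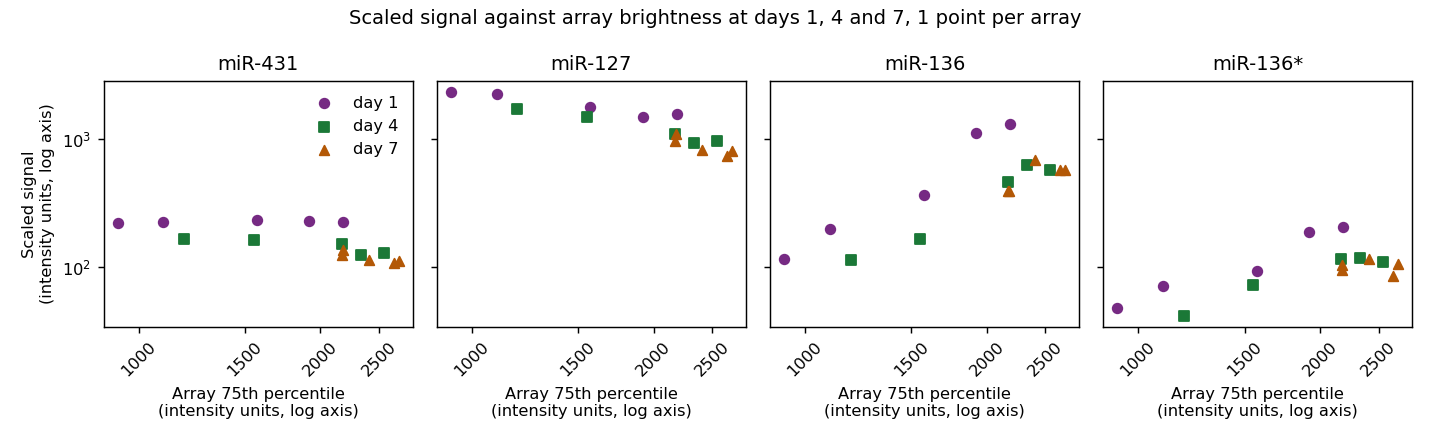
Scaled signal (intensity units, log axis) against the array's 75th percentile before scaling (intensity units, log axis) for miR-431, miR-127, miR-136 and miR-136*, 1 point per array of days 1, 4 and 7. At day 1, miR-136 ran from 115 units on the dimmest array to 1313 on the brightest, while miR-431 stayed between 219 and 234.

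Day 42 against day 1 spans the study and asks how far the adult lung lies from the newborn one. All 7 members fell, against 42.9% of all 322 names, and in all 7 the day 42 arrays lay below the day 1 arrays without overlap, against 26.4% of all names. The median of the members was -4.12 on the log2 scale, beside -0.35 for all names. The median of the members is the value of miR-127, which all 4 day 42 arrays detected. Setting miR-431 and miR-433 at their bounds did not move it, which is no check of the floor. The values of miR-434-5p, miR-136 and miR-136* also rest in part on day 42 arrays that did not detect them. Leaving out 1 array at a time brought the change of miR-136 to as little as -2.94. The scaling moved the background but kept this direction: with no scaling the median of all names was 0.64 and that of the members -3.12, and of 203 names called 145 rose, against 61 of 199 with the scaling used. With normexp background correction the medians were -2.26 for the members and -1.19 for all names, and all 7 again fell.

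Within the 3 slides, each of which held all ages, the fall from day 1 to day 42 was present for every member. The only day 42 array was replicate 2 on slide 1 and replicate 4 on slide 3, and the only day 1 array of slide 2 was replicate 2. Each within-slide value thus leans on a single array at day 1 or at day 42. For miR-127 the within-slide values were -4.72, -3.82 and -3.64, and for miR-434-3p they were -5.15, -4.15 and -3.83. Those of miR-431 and miR-433 are set by the floor at day 42 and give only the direction. The values of miR-136 ranged more widely, with -2.08, -4.28 and -5.49, the last from slide 3, where the dim replicate 4 of day 42 did not detect it. Without the 5 dim arrays miR-136 stood at -3.91 and miR-136* at -4.06, and with array brightness as a covariate miR-136 was at -5.32.

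The steps between ages show when the members fell. Against day 1, 0 of 7 passed the test with limma at day 4 (falls made up 0.932% of all names). All 7 values were negative, from -0.77 for miR-433 to -0.29 for miR-136*, with a median of -0.58 beside 0.03 for all names. In miR-431 and miR-434-5p the day 4 arrays all lay below the day 1 arrays, as in 3.42% of all names. From day 4 to day 7, 0 of 7 passed (falls made up 0.311% of all names).

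By day 7, 5 of 7 members had fallen against day 1, beside 10.6% of all names. They were miR-431, miR-433, miR-127 with -1.07 ± 0.26 (adjusted p = 0.0077), miR-434-3p with -1.02 ± 0.27 (adjusted p = 0.0134) and miR-434-5p with -0.68 ± 0.23 (adjusted p = 0.0474). In the same 5 the day 7 arrays all lay below the day 1 arrays, beside 10.9% of all names. The arms of miR-136 were not among them, and whether they differed from the others was not tested. This early step depended on how brightness was treated: 3 members passed without the dim arrays, 2 with brightness as a covariate, miR-431 (-0.79) and miR-433 (-0.77), and 1 with no scaling, miR-433 (-0.52). Without scaling miR-434-5p was at 0.040. Its call was also lost in 17 of the 24 fits that left out 1 array (adjusted p from 0.0505 to 0.0982), and that of miR-434-3p was lost without replicate 5 of day 1 (-0.92, adjusted p = 0.0508).

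A further step came between day 7 and day 14, where 6 of 7 members fell, beside 23.9% of all names, and in all 7 the day 14 arrays lay below the day 7 arrays, beside 25.2% of all names. The values were -2.07 ± 0.21 for miR-431 (adjusted p = 1.98e-07), -1.64 ± 0.25 for miR-433, which 1 of 5 arrays detected at day 14 (adjusted p = 2.12e-05), and -1.58 ± 0.23 for miR-434-5p (adjusted p = 9.92e-06). For miR-434-3p the value was -1.42 ± 0.27 (adjusted p = 0.000219), for miR-127 -1.34 ± 0.26 (adjusted p = 0.000216) and for miR-136* -1.28 ± 0.33 (adjusted p = 0.00385). The seventh, miR-136, stood at -1.36 ± 0.60 (adjusted p = 0.0941), and it passed without the dim arrays (adjusted p = 0.000991, at the same value) and with brightness as a covariate (-2.03). The median of the members was -1.42 for this step and -0.93 for day 7 against day 1. With normexp background correction 0 of 7 passed with limma, beside 9 of the 322 names. These medians were then -0.21 and -1.02, so that the order of the steps turned. The medians of all names moved as well, from -0.05 and -0.10 to 0.32 and -0.82. The turn can thus not be read as one of the members alone.

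Against day 1, 6 of 7 members had fallen by day 14, beside 32.6% of all names, with a median of -2.42 for the members and -0.17 for all names. In 5 of 7 the arrays of day 14 lay below those of day 1 without overlap, beside 21.4% of all names, and the arms of miR-136 were the others. The exception was miR-136, which fell without the dim arrays (-2.03) and without replicate 4 of day 1 alone (-1.52, adjusted p = 0.0344). Without scaling it was at 0.033. The call of miR-136* was lost under other scalings, with -0.74 after quantile normalization (adjusted p = 0.0766), -0.25 without scaling (adjusted p = 0.68) and -0.68 in the authors' deposited table (adjusted p = 0.0769), so that 5 members passed there. With normexp 3 members passed.

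A further fall came between day 14 and day 42, in 6 of 7 members beside 28% of all names, and in 6 of 7 the arrays did not overlap, beside 26.1% of all names. The bound for miR-431 was at least 3.58-fold (adjusted p = 9.44e-07). For miR-127 the value was -1.70 ± 0.27 (adjusted p = 3.26e-05), for miR-434-3p -2.02 ± 0.29 (adjusted p = 9.01e-06), for miR-434-5p -2.01 ± 0.24 (adjusted p = 1.19e-06) and for miR-136* -2.25 ± 0.35 (adjusted p = 2.32e-05). For miR-136 it was -2.45. Of the log2 change from day 1 to day 42, 30.2% was reached by day 14 in miR-136 and 37.4% in miR-136*, but 51.8% and 46.8% without the dim arrays, so no share is firm for this hairpin. The exception was miR-433, already at the floor by day 14.

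**Figure D3:**
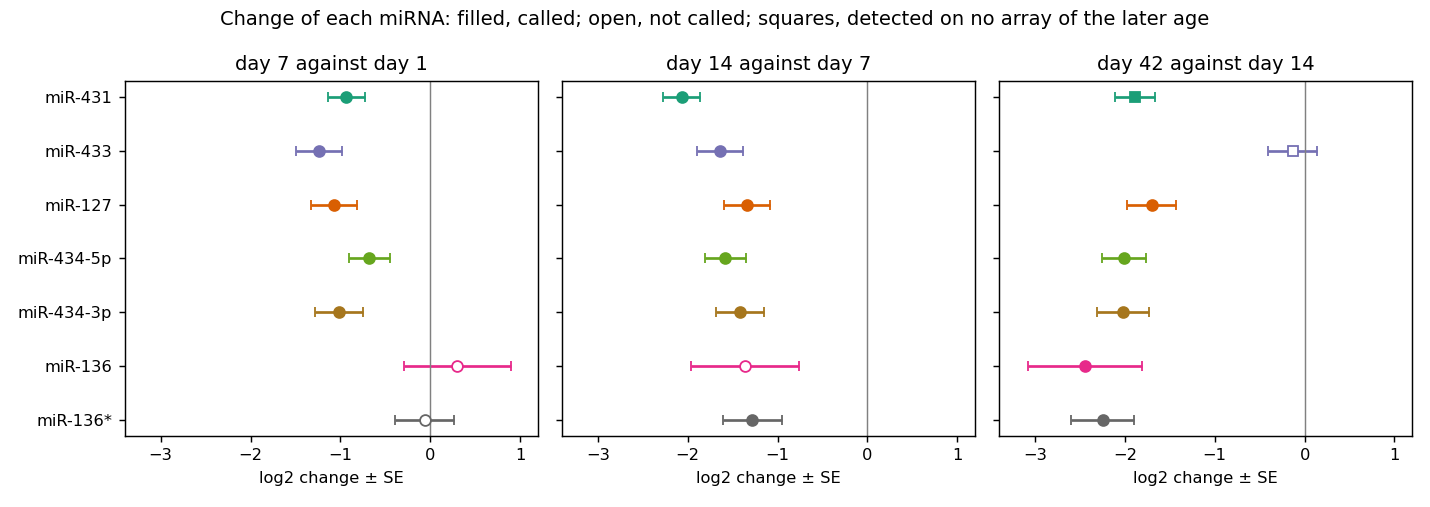
Log2 change of each member with its SE (bars) at day 7 against day 1, day 14 against day 7 and day 42 against day 14, filled where the adjusted p was under 0.05, and as a square where no array of the later age detected it. The arms of miR-136 lie at 0.30 and -0.06 in the first panel, where the other 5 members are between -1.24 and -0.68, and all values of the second panel lie between -2.07 and -1.28.

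Replicate 5 of day 14 bears on both of these steps. It held the highest day 14 value of all 7 members, as it did for 34 of the 35 other tested names of the Dlk1-Dio3 region and for 122 of all 322 names (37.9%). Against the mean of the other 4 arrays it was higher by 1.47 on the log2 scale for miR-431, 1.23 for miR-434-5p, 1.05 for miR-127, 1.01 for miR-434-3p, 0.88 for miR-136 and 0.59 for miR-136*. For miR-433 the other 4 arrays were not detected and set to the floor, which replicate 5 exceeded by 0.67. The array leaned to day 7 beyond this region too. Of 41 names of other regions that were lower at day 14 than at day 7 in a fit without it, 39 read higher on this array than on any other of day 14, and of 31 that were higher, 30 read lower. Without it the fall from day 7 to day 14 was larger, with -2.36 for miR-431, -1.83 for miR-434-5p, -1.62 for miR-434-3p and -1.55 for miR-127, and the same 6 members passed. The fall from day 14 to day 42 was smaller, with -1.76 for miR-434-5p, -1.82 for miR-434-3p and -1.49 for miR-127. What sets this array apart was not tested.

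**Figure D4:**
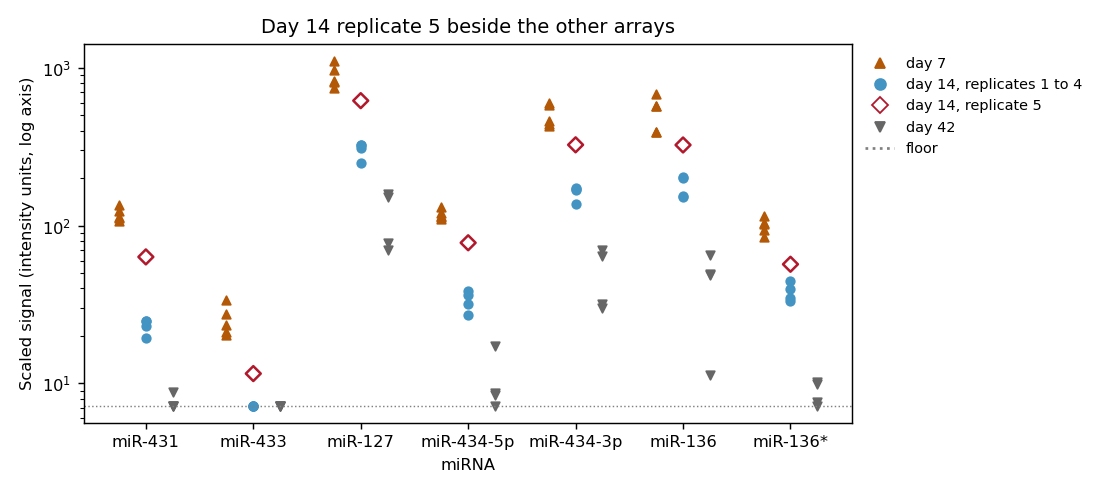
Scaled signal (intensity units, log axis) of each member on the arrays of day 7 (triangles), day 14 (circles, with replicate 5 as an open diamond) and day 42 (inverted triangles), with the floor dotted. Replicate 5 lies above the other 4 day 14 arrays for each member, as for miR-431 with 63.3 against 19.3 to 25.02 units.

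Both arms of a hairpin are cut from the same precursor, and the difference between their log2 signals on an array does not depend on how that array was scaled. Its size mixes the responses of different probes, and only its change with age was compared. For miR-434, the 3p arm minus the 5p arm over days 1, 4, 7 and 14 was 2.42 ± 0.64, 2.39 ± 0.39, 2.08 ± 0.14 and 2.24 ± 0.14 (SD, n = 5 each), and 1.91 and 1.84 on the 2 arrays of day 42 that detected both arms. It still varied with array brightness: at day 1 it was 3.32 and 2.84 on the dim replicates 4 and 5, and 1.82 to 2.15 on the other arrays. Day 14 and day 1 differed by -0.18 (exact permutation test, two-sided p = 0.571). Day 42 and day 1 differed by -0.54 (exact two-sided p = 0.286). Day 42 and day 14 differed by -0.36 (exact two-sided p = 0.0952, the smallest that 2 arrays against 5 allow; adjusted p = 0.381). For miR-136, miR-136 minus miR-136* over the same ages was 1.99 ± 0.63, 1.89 ± 0.55, 2.36 ± 0.35 and 2.28 ± 0.15 (SD, n = 5 each), and 2.28 on the 1 array of day 42 that detected both. Here the dim replicates 4 and 5 of day 1 were the lower ones, at 1.27 and 1.48 against 1.98 to 2.67 on the other day 1 arrays. Day 14 and day 1 differed by 0.28 (exact two-sided p = 0.357). None of the 4 tests passed after adjustment. Those with day 42 could not have passed, since 2 arrays against 5 allow no p under 0.0952. Between day 14 and day 1 a shift between arms was not detectable with these arrays, whose number and unequal brightness limit the precision.

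**Figure D5:**
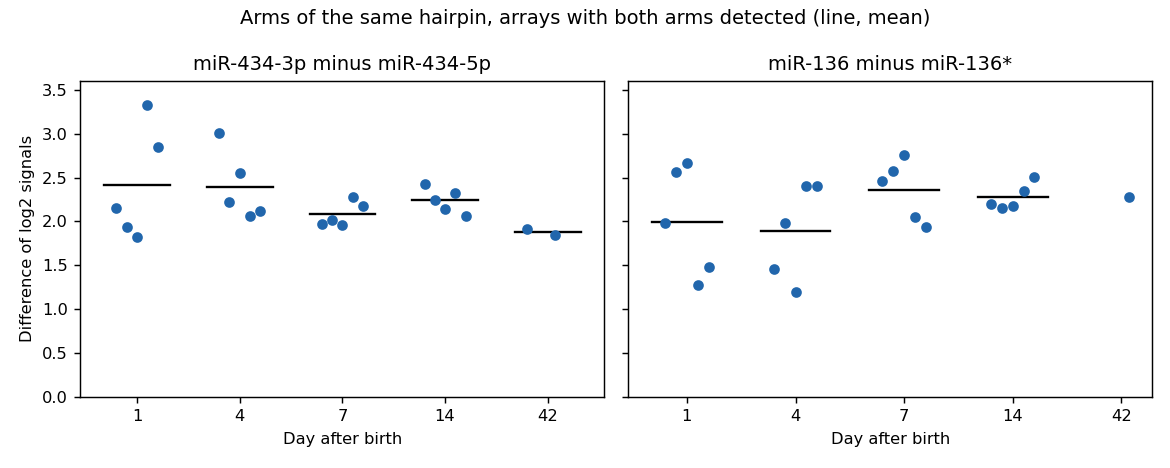
Difference between the log2 signals of the arms of miR-434 (left) and of miR-136 (right) at each age, 1 point per array on which both arms were detected, with the mean as a line. The means run from 1.88 to 2.42 for miR-434 and from 1.89 to 2.36 for miR-136, and the points of days 1 and 4 are the most spread.

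The opposite arms of the other hairpins were looked at after the values of the members were seen. Neither miR-127* nor miR-431* was detected on any array. The opposite arm miR-433* averaged 49.4, 33.4 and 26.0 units at days 1, 4 and 7, beside 62.7, 36.0 and 25.2 for miR-433. This arm was detected on 4 of 5 arrays at each of these ages and on no array of day 14 or day 42. It was not tested, since it was not detected on every array of any age, but it left detection between day 7 and day 14, as miR-433 did on all arrays except replicate 5.

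Over the 24 arrays, miR-127 and miR-434-3p had a correlation of 0.998, and miR-136 and miR-136* one of 0.94. The lowest between members was 0.46, between miR-136 and miR-433. These values are descriptions: all members share the course with age, and values of 1 array share its scaling. Among the 226 other names detected on all arrays, the mean profile of miR-127 and miR-434-3p was most like those of miR-382 (r = 0.999), miR-337-5p (0.999), miR-329 (0.997) and miR-299* (0.997), all from the same region. The next were miR-296-5p (0.991), from the imprinted Gnas region, and miR-322* (0.987), from an X-linked cluster. Only 9 of the 226 names were from the Dlk1-Dio3 region, and the last of them, miR-494, ranked 91.

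The rest of the Dlk1-Dio3 region has its miRNAs in clusters along the same maternal transcripts, and the array carried 63 further names from it, 35 of them tested. From day 1 to day 42, 34 of these 35 fell (median -3.38), beside 7 of 7 members (median -4.12) and 42.9% of all 322 names. No day 42 array detected 17 of the 35. These were tested only because all arrays of an earlier age detected them, so that their fall is in part built into the list. The median was that of a name detected on all 4 day 42 arrays, and setting the 17 at their bounds did not move it. Of the 28 that were detected on every day 1 array, miR-410 had a change of -4.67 ± 0.28, with 2 of 4 day 42 arrays detecting it. For miR-411* and miR-134, which no day 42 array detected, the falls were at least 20.1-fold and at least 4.17-fold, so that their place among the 28 is not known. The name miR-494, detected on all 4 day 42 arrays, did not pass (-0.47 ± 0.28, adjusted p = 0.143). At day 7, 16 of 35 had fallen against day 1, beside 5 of 7 members and 10.6% of all names. At day 14 it was 35 of 35, beside 6 of 7 members and 32.6% of all names. No difference between the members and the rest of the region was tested, and the lists are unequal in how many names reach the floor.

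Among miRNAs that mark cell types, the 5 names of smooth muscle and mesenchyme, detected on every array, summed to 11989.8 to 14732 units at day 42, against 18790.2 to 25067 at day 1. At day 7 this sum was 20468 to 23744 units, within its day 1 range. Of these names miR-214, miR-199a-5p and miR-199a-3p fell from day 1 to day 42, with -2.19, -1.61 and -0.78 on the log2 scale. In the same comparison miR-143 and miR-145, which mark smooth muscle, did not pass (0.03, adjusted p = 0.871, and 0.00058, adjusted p = 0.999). The 2 names of endothelium, detected on every array of both ages, summed to 62485 to 83814 units at day 42 against 31975 to 49293 at day 1, and the 4 of leukocytes, likewise detected, to 9787 to 13172 against 4009 to 7441. The 6 of epithelium overlapped between the ages, with sums of 14769.9 to 17154 units at day 42 and 12455 to 15987 at day 1. The part that these shifts have in the fall of the members was not tested. Of the 5 names listed for brain, a tissue in which the region is active, 2 were detected on every array of day 42 and 1 on every array of day 1, and the sums were 214 to 301 and 153 to 344 units. The 7 names of striated muscle, 3 of them detected on every array of either age, summed to 37912 units on replicate 2 of day 1 and to 369.6 to 2250.1 on the other day 1 arrays. On that replicate miR-127 was the lowest of its age, at 1481 units, and the other members lay within the range of the other day 1 arrays. Whether muscle on this array has a part in the members' values was not tested. The liver name miR-122 was detected on some arrays only, at up to 26.8 units at day 42 and up to 123.5 at day 1. None of the lists was tested as a list.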

How the data were processed

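Total RNA of whole lung was labelled with Cy3 and hybridised to 1-colour Agilent miRNA arrays, per the labels' protocols, and read with Agilent Feature Extraction 10.7.1.1, per the file headers. The deposited array files hold an intensity per spot, background-subtracted by the authors' software and not adjusted between arrays, and a detection flag per miRNA. Log2 values with 1 median in all columns are held by a further deposited table of the authors; how it was made is not stated in the labels, and it served as an alternative.

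Here, spots of a probe were averaged without those flagged as outliers, the probes of a name were summed, and each array was divided by its 75th percentile over 228 names detected on all arrays. The floor was 7.24 units. Tests covered the names that all arrays of some age detected (322 of 650, of which 39 are of viruses) with limma 3.58.1 in R 4.3.3 (19 residual degrees of freedom, Benjamini-Hochberg adjustment within each comparison, two-sided). Where no array of an age detected a name, its fold is a bound, taken against the higher of the lowest detected signal and its own signal on each array. Differences between arms used exact permutation tests over arrays, adjusted over 4 tests. The code was tested on simulated data. Files hold no mean spot signal, so normexp (offset 50) used the median spot signal.

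The members, the lists and the rule for naming other miRNAs were chosen with earlier results of these data known. The other names given are the 6 most like the profile of the members detected on all arrays, and the 2 largest and 2 smallest fitted falls of the rest of the region; the opposite arms were added after their values were seen. Sequences are those of RefSeq (GRCm38.p6); the files name no genome build. Drawing used matplotlib 3.10.9 in Python 3.11.15.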

Additional observations from a re-analysis of the deposited data

Results flagged for a closer look

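In 2 of 29 groups of arrays of the same age in which all arrays detected a member, 1 array stood far from the others by Dixon's test, and both were replicate 5 of day 14. For miR-431 it read 5.98 on the log2 scale (63.3 units), against 4.64 on the next array. For miR-434-3p it read 8.34 (324.8 units), against 7.43 on the next. Chance marks about 1 in 20 such groups. The members were read on the same arrays, so the groups are not independent and both marks stand for the same array. The same array held the highest day 14 value of all 7 members.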

How the results depend on the processing

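The fall of the 7 members from day 1 to day 42 passed the test in all 7 under each scaling, floor, block and covariate run, with normexp background correction and without any 1 array. When names had to be detected on all arrays, only 2 members could be tested, and 2 were called over the 5 ages, at day 42, day 14 and day 7 against day 1, at day 14 against day 7 and at day 42 against day 14. Of all 228 names in that setting, 147 were called over the 5 ages, and 142, 121 and 23 at day 42, day 14 and day 7 against day 1. At day 14 against day 7 58 of the 228 were called, and at day 42 against day 14 63. With normexp, 6 members were called over the 5 ages, 3 at day 14 against day 1 and 0 at day 14 against day 7. In the same setting 3 were called at day 42 against day 14 and 0 at day 7 against day 1. There miR-433 turned to 0.22 at day 14 against day 7 (adjusted p = 0.793). At day 7 against day 1, 1 was called with no scaling, where miR-434-5p turned to 0.040 (adjusted p = 0.915), 2 with brightness as a covariate and 3 without the dim arrays, an alternative chosen after seeing the data. Leaving out 1 array at a time gave 7 to 7 calls for the F-test and for day 42 against day 1, 6 to 7 for day 14 against day 1, 0 to 1 for day 4 against day 1 and 3 to 5 for day 7 against day 1. It gave 6 to 6 for day 14 against day 7 and for day 42 against day 14.

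With the replicate block 7 members were called at day 42 against day 1, and all 70 results of single members kept their call and direction. Same-numbered arrays did not deviate together (median correlation -0.02 over 46 pairs; 2 of 24 arrays correlated best with their own number), so the numbers were not taken as a pairing.

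Counts over all names moved more. With normexp they were 93 against 211 for the F-test, 52 against 173 at day 14 against day 1, 9 against 101 at day 14 against day 7, 22 against 105 at day 42 against day 14 and 6 against 51 at day 7 against day 1. At day 7 against day 1 they were 132 with no scaling, and at day 4 against day 1 28 with brightness as a covariate against 5. At day 14 against day 7 they were 168 with only the arrays of these ages, 164 without the dim arrays, 153 with brightness as a covariate and 156 when all names set the percentile. At day 42 against day 14 they were 65 with no scaling. The median change of all names at day 14 against day 1 lay between -0.57 with normexp and 0.89 with no scaling. The cause of these shifts was not tested. Signals near the floor limit the falls of miR-431, miR-433, miR-434-5p and miR-136*, and miR-136 was detected on 3 of 4 day 42 arrays.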
